A study of Mus musculus with 6 samples.

Results

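Dendritic cells take up dead cells and foreign material, carry antigen and present it to T cells, and RNA of the genes that mark them was measured here in 6 mouse liver tumors. The dendritic cell genes were the 10 rows of the gene table, out of 34745 listed genes, whose symbols were Itgax, Flt3, Zbtb46, Clec9a, Batf3, Irf8, Itgae, Cd209a, Irf4 and Siglech. The rule used the gene symbols, and the genes were sorted into 3 genes shared by dendritic cells (Itgax, Flt3, Zbtb46), 4 of the conventional type 1 (Clec9a, Batf3, Irf8, Itgae), 2 of the conventional type 2 (Cd209a, Irf4) and 1 of the plasmacytoid type (Siglech). Bulk RNA-seq was run on 3 tumors of Prmt3f/f mice, labelled WT (tumors numbered 7, 66 and 71), and 3 tumors of Prmt3LKO mice, labelled Prmt3-KO (92, 93 and 94). Prmt3f/f mice carry floxed Prmt3 alleles, and Prmt3LKO mice carry in addition a Cre recombinase under the albumin promoter, which removes Prmt3 in hepatocytes, so that dendritic cells of both groups are not the cells in which the deletion was designed to occur. Both groups shared the same carcinogens: diethylnitrosamine (DEN) at 25 mg/kg when the mice were 2 weeks old, then 10% CCl4 in oil at 0.5 ml/kg from an age of 6 weeks, with tumors taken at 26 weeks. The comparison asks how the genotype of the hepatocytes relates to the RNA of dendritic cell genes in the tumor.

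Conventional dendritic cells of type 1 cross-present antigen of dying cells to CD8+ T cells and depend on the transcription factors Batf3 and Irf8. Those of type 2 present antigen mainly to CD4+ T cells and use Irf4, whereas plasmacytoid dendritic cells release type I interferon. All of them derive from bone marrow precursors that need the receptor tyrosine kinase Flt3 and its ligand, and in liver tumors they lie among Kupffer cells, other macrophages and lymphocytes that express some of the same genes.

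All 10 dendritic cell genes had lower mean levels in Prmt3LKO tumors than in Prmt3f/f tumors, and none reached the limits for a call, which were an adjusted p below 0.05 together with a fold of 2 or more. The summed level of the 10 genes was 60.6, 61.8 and 58.5 CPM (counts scaled to the library total and by TMM factors) in Prmt3f/f tumors 7, 66 and 71, against 28, 43.3 and 42.2 CPM in Prmt3LKO tumors 92, 93 and 94. The groups did not overlap, and the Prmt3LKO mean was 62.7% of the Prmt3f/f mean. The genes with the lowest means relative to Prmt3f/f were Itgae (31.0%), Clec9a (33.2%), Siglech (40.9%) and Itgax (49.2%), whereas Cd209a stood at 93.5% and Zbtb46 at 82.6%. In bulk RNA, fewer dendritic cells and less RNA of a gene per dendritic cell cannot be told apart.

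**Figure D1:**
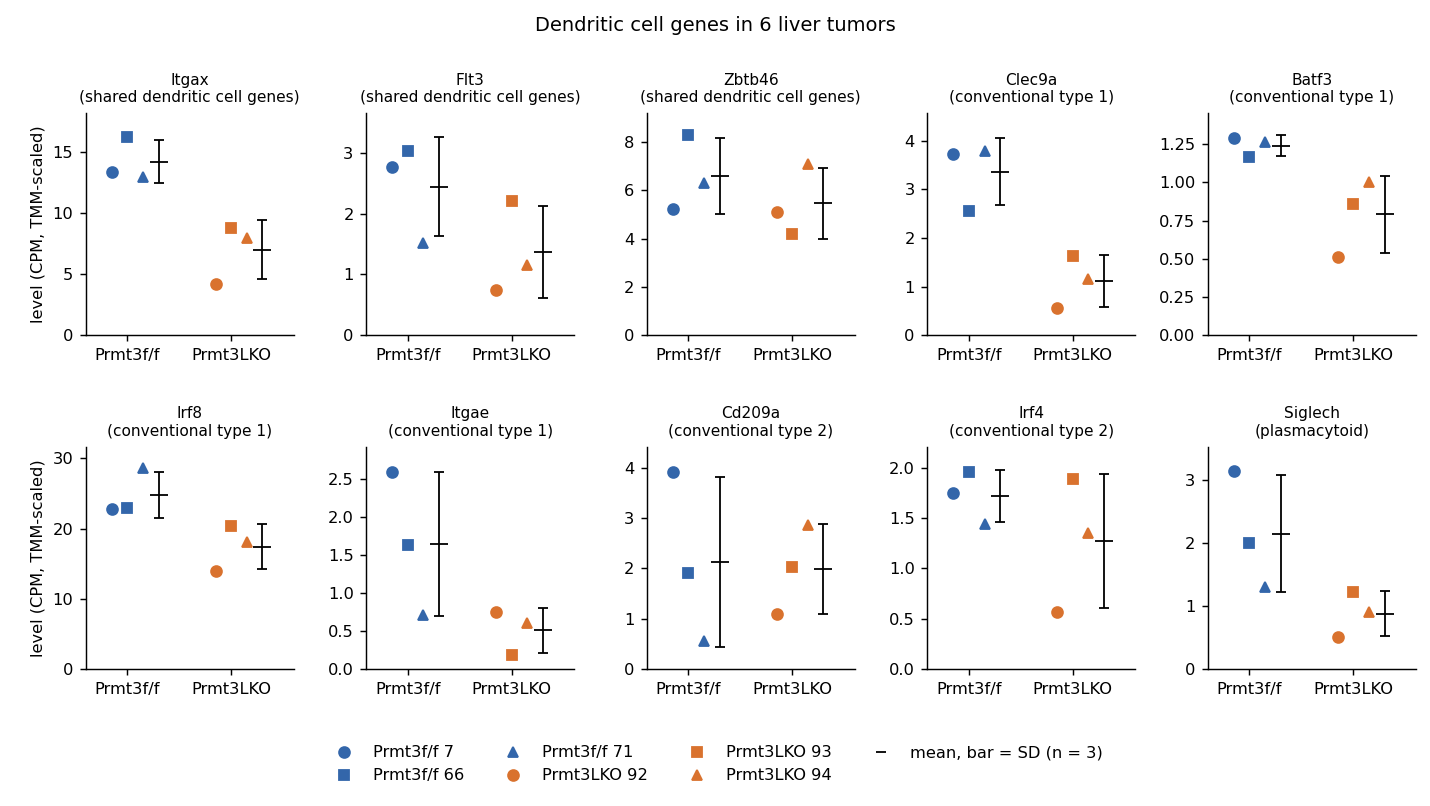
Level of each of the 10 dendritic cell genes in each tumor, in CPM scaled by TMM factors on a linear axis from 0; points are tumors, and the black mark and bar give the mean and SD of 3 tumors. Itgax, Clec9a, Batf3, Irf8 and Siglech show no overlap between genotypes, and the 2 groups of points lie across each other for Cd209a, Irf4, Flt3, Zbtb46 and Itgae.

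All 10 genes passed the filter on low counts and entered the fit of 13892 genes. By the edgeR quasi-likelihood test (Benjamini-Hochberg adjusted), 0 of the 10 were called lower and 0 higher at the limits above, the same share as among all genes tested in either direction (0%). At an unadjusted p under 0.05, 5 of the 10 were lower in Prmt3LKO (Itgax, Clec9a, Irf8, Itgae and Siglech) and 0 were higher, where 4.37% of all genes tested were lower and 2.20% higher. This count was 3 without Prmt3f/f 7, without Prmt3f/f 66 or without Prmt3LKO 92, 2 without Prmt3LKO 94, and 3 with limma-voom. The 3 values of each group did not overlap for 5 genes, all lower in Prmt3LKO (Itgax, Clec9a, Batf3, Irf8 and Siglech), and for 0 genes in the other direction, where the shares among all genes were 6.60% lower and 5.56% higher. DESeq2 also called 0 of the 10, with the smallest adjusted p for Clec9a (0.0826; 0.0826 to 1.0 over the alternatives) and Itgax (0.127; 0.127 to 1.0). The median log2 difference (Prmt3LKO minus Prmt3f/f) was -0.73 over the 10 genes and 0.00037 over all genes tested, and it was -0.47 without Prmt3LKO 92. An exact permutation test of 3 against 3 tumors cannot go below p = 0.1. The labels do not say that the tumors of a group came from separate litters or were handled separately, so p-values measure the spread between these tumors.

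**Figure D2:**
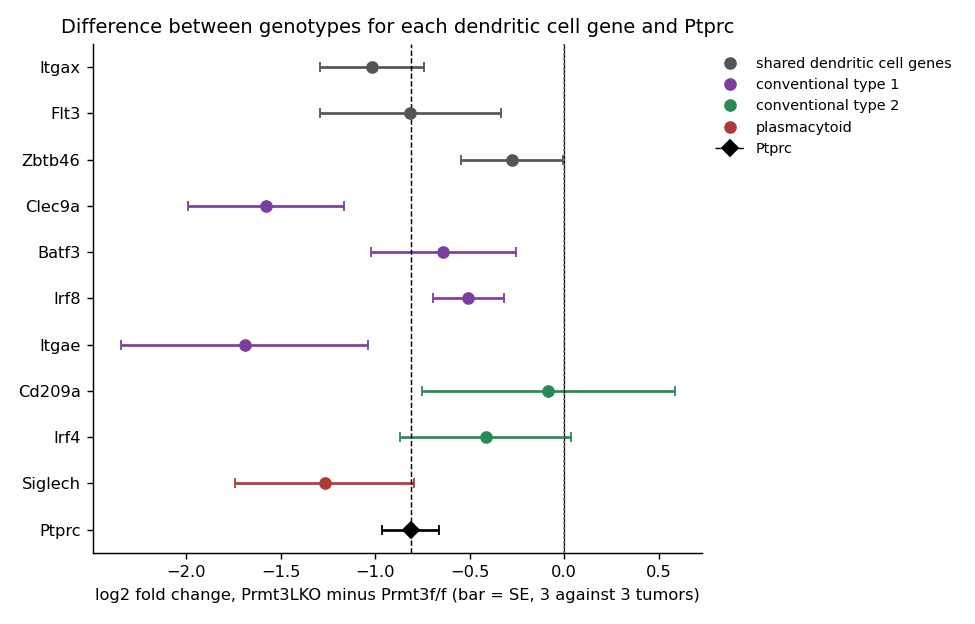
Log2 fold change of each dendritic cell gene and of Ptprc, Prmt3LKO minus Prmt3f/f, with the standard error of the edgeR fit as a bar; colors give the dendritic cell type, the dotted line marks the median of all genes tested and the dashed line the value of Ptprc (-0.81). The estimates run from -1.69 (Itgae) to -0.08 (Cd209a), so that all 10 points lie left of 0.

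Per length of transcript, dendritic cell genes were of low abundance. Over the 6 tumors the mean FPKM (fragments per kilobase of gene length, scaled to the library total) was 2.45 for Irf8, 2.01 for Itgax and 1.40 for Cd209a. It was 0.565 for Zbtb46, 0.560 for Clec9a, 0.320 for Batf3 and 0.310 for both Flt3 and Irf4. Itgae (0.230) and Siglech (0.189) were lowest. The ranges over tumors of neighbours in this order overlapped in every case, for example 1.53 to 3.36 FPKM for Irf8 and 0.756 to 2.99 FPKM for Itgax. The lowest counts of the set were 4 for Itgae in Prmt3LKO 93 and 9 for Batf3 and Siglech in Prmt3LKO 92, so a few reads decide the lowest values. Prmt3LKO 92 held the lowest CPM of 7 of the 10 genes, Prmt3LKO 93 that of Zbtb46 and Itgae, and Prmt3f/f 71 that of Cd209a. The highest CPM of every gene was in a Prmt3f/f tumor, and the highest value over the lowest ranged from 1.98 for Zbtb46 to 14.3 for Itgae.

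Among the shared genes, Itgax (ENSMUSG00000030789, chromosome 7, 128129547 to 128150657, + strand, GRCm38) encodes CD11c, an integrin chain that dendritic cells carry at high density and that some macrophages and natural killer cells also express. Its level was 13.4, 16.2 and 13 CPM in Prmt3f/f 7, 66 and 71 (290, 348 and 369 counts) and 4.23, 8.75 and 7.99 CPM in Prmt3LKO 92, 93 and 94 (74, 194 and 159 counts). All 3 Prmt3LKO tumors lay below all 3 Prmt3f/f tumors, with Prmt3LKO 92 lowest. The means were 14.2 ± 1.78 and 6.99 ± 2.42 CPM (SD, n = 3 each, exact permutation p = 0.1). In the edgeR fit the log2 fold change was -1.02 (SE 0.28), with an unadjusted p = 0.00675 and an adjusted p = 0.606 by the edgeR quasi-likelihood test (Benjamini-Hochberg adjusted). Leaving out 1 tumor at a time gave unadjusted p-values of 0.00573 to 0.0245 in the same edgeR test.

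Flt3 (ENSMUSG00000042817, chromosome 5, 147330741 to 147400489, - strand) encodes the receptor through which its ligand drives the growth of dendritic cell precursors. It was measured at 2.77, 3.03 and 1.51 CPM in Prmt3f/f 7, 66 and 71 and at 0.743, 2.21 and 1.16 CPM in Prmt3LKO 92, 93 and 94. The groups overlapped, since Prmt3LKO 93 lay above Prmt3f/f 71. On the log2 scale the fold change was -0.81 (SE 0.48), with an adjusted p = 0.841 by the same edgeR test. It was -0.52 without Prmt3LKO 92 and -1.34 without Prmt3LKO 93.

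Zbtb46 (ENSMUSG00000027583, chromosome 2, 181387762 to 181459426, - strand) encodes a zinc finger transcription factor of conventional dendritic cells that endothelial cells also express. Its level was 5.22, 8.30 and 6.29 CPM in Prmt3f/f 7, 66 and 71 and 5.09, 4.20 and 7.09 CPM in Prmt3LKO 92, 93 and 94. Here the order of tumors was unlike that of Itgax, because Prmt3LKO 94 was the second highest of all 6 and Prmt3LKO 92 lay close to Prmt3f/f 7. The log2 fold change was -0.28 (SE 0.27), with an adjusted p = 0.940 by the same edgeR test. It was -0.08 without Prmt3f/f 66, -0.11 without Prmt3LKO 93 and -0.51 without Prmt3LKO 94. Markers of endothelial cells, the other cell type named here, had a median log2 fold change of -0.12 over 10 genes tested. This median was -0.22 without Prmt3f/f 7 or Prmt3LKO 92 and -0.03 without Prmt3f/f 71.

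Itgax and Zbtb46 were the only genes, of the 9 with a RefSeq promoter, with a match to the AP-1 letters TGANTCA, which factors of the Batf and Jun families bind, in the 250 bases before a RefSeq transcription start. They are shown because Batf3, described below, is such a factor. Bases are those of GRCm38.p6, 5′ to 3′ on the strand of the gene, with the match in capitals, at chr7:128129464-128129530 (+ strand; the match begins 56 bases before the start) for Itgax and chr2:181424413-181424479 (- strand; 61 bases before the start) for Zbtb46. The Zbtb46 start used by RefSeq here lies inside the bounds of the gene given above.
Itgax: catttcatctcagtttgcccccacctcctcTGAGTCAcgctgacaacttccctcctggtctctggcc
Zbtb46: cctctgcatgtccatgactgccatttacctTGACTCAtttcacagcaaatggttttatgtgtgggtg
The 10 RefSeq promoters covered 9 of the 10 genes (Irf8 had more than 1, Itgae had none), and 2 of the 10 held TGANTCA, against 6.75% of 32851 mouse promoters of the same length searched on both strands. The letters GAGGAAGT (an ETS site of the PU.1 kind) were in 0 of the 10 and in 2.44% of all, and GAAANNGAA (an interferon regulatory factor repeat) was in 0 of the 10 and in 7.13% of all. The log2 fold changes of the 2 genes with a match, -1.02 and -0.28, were the highest and the lowest in size among the 3 shared genes.

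The 4 conventional type 1 genes had a median log2 fold change of -1.11, and 3 of them (Clec9a, Irf8 and Itgae) were lower in Prmt3LKO at an unadjusted p under 0.05. That count was 1 without Prmt3LKO 94 and 2 without any other single tumor. Clec9a (ENSMUSG00000046080, chromosome 6, 129408862 to 129424763, + strand) encodes DNGR-1, a receptor for filamentous actin exposed by dead cells and a defining marker of type 1 cells. It was measured at 3.74, 2.57 and 3.80 CPM in Prmt3f/f 7, 66 and 71 (81, 55 and 108 counts) and at 0.572, 1.62 and 1.16 CPM in Prmt3LKO 92, 93 and 94 (10, 36 and 23 counts). All Prmt3LKO tumors lay below all Prmt3f/f tumors. The means were 3.37 ± 0.695 and 1.12 ± 0.527 CPM (SD, n = 3 each, exact permutation p = 0.1). In the edgeR fit the log2 fold change was -1.58 (SE 0.41), with an unadjusted p = 0.00562 and an adjusted p = 0.592 by the edgeR quasi-likelihood test (Benjamini-Hochberg adjusted). It ran from -1.95 to -1.27 with each tumor left out in turn. Clec1b, on the same strand, shares 184 exon bases with Clec9a in GENCODE M21, so reads there could be assigned to either gene. Clec1b had a log2 fold change of -0.09 (SE 0.30; adjusted p = 0.988 by edgeR).

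Irf8 (ENSMUSG00000041515, chromosome 8, 120736358 to 120756694, + strand) encodes interferon regulatory factor 8, needed for type 1 dendritic cells and also active in monocytes, B cells and plasmacytoid dendritic cells. Its level was 22.8, 23.0 and 28.6 CPM in Prmt3f/f 7, 66 and 71 and 13.9, 20.3 and 18 CPM in Prmt3LKO 92, 93 and 94. The groups did not overlap, although the gap between Prmt3LKO 93 and Prmt3f/f 7 was small. Means were 24.8 ± 3.32 and 17.4 ± 3.24 CPM (SD, n = 3 each, exact permutation p = 0.1). On the log2 scale the fold change was -0.51 (SE 0.19), with an unadjusted p = 0.0277 and an adjusted p = 0.684 by the same edgeR test, and leaving out tumors in turn gave unadjusted edgeR p-values of 0.0183 to 0.0970, over 0.05 without Prmt3f/f 71, Prmt3LKO 92 or Prmt3LKO 94.

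Batf3 (ENSMUSG00000026630, chromosome 1, 191097847 to 191108945, + strand), the AP-1 family factor that type 1 dendritic cells require, had few counts. It was measured at 1.29, 1.17 and 1.27 CPM in Prmt3f/f 7, 66 and 71 (28, 25 and 36 counts) and at 0.514, 0.857 and 1.01 CPM in Prmt3LKO 92, 93 and 94 (9, 19 and 20 counts). The Prmt3f/f tumors were nearly level with each other, and all Prmt3LKO tumors were below them. The means were 1.24 ± 0.0665 and 0.792 ± 0.252 CPM (SD, n = 3 each, exact permutation p = 0.1). The log2 fold change of -0.64 (SE 0.38) had an unadjusted p = 0.136 and an adjusted p = 0.853 by edgeR, and it was -0.41 without Prmt3LKO 92.

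Itgae (ENSMUSG00000005947, chromosome 11, 73090583 to 73147446, + strand) encodes CD103, an integrin chain that binds E-cadherin and is carried by tissue type 1 dendritic cells and by resident CD8+ T cells. Its level was 2.59, 1.63 and 0.703 CPM in Prmt3f/f 7, 66 and 71 (56, 35 and 20 counts) and 0.743, 0.180 and 0.603 CPM in Prmt3LKO 92, 93 and 94 (13, 4 and 12 counts). Prmt3LKO 92 lay just above Prmt3f/f 71, so the groups overlapped, and the spread within Prmt3f/f was wide. The means were 1.64 ± 0.941 and 0.509 ± 0.293 CPM (SD, n = 3 each, exact permutation p = 0.2). The log2 fold change was -1.69 (SE 0.65), with an unadjusted p = 0.0338 and an adjusted p = 0.707 by edgeR, and it was -1.21 without Prmt3f/f 7. The unadjusted p stayed under 0.05 only without Prmt3f/f 71 or Prmt3LKO 92, and leaving out any other tumor took it over 0.05. The T cell marker Cd8a had a mean of 5.93 ± 0.831 CPM in Prmt3f/f and 2.14 ± 0.783 CPM in Prmt3LKO, and the part of T cells in the Itgae value was not tested.

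Of the conventional type 2 genes, 0 of 2 were at an unadjusted p under 0.05. As sets, the type 1 and type 2 genes were not tested against each other. Cd209a (ENSMUSG00000031494, chromosome 8, 3743395 to 3748984, - strand) encodes a C-type lectin of the DC-SIGN family found on type 2 and monocyte-derived dendritic cells. Its level was 3.92, 1.91 and 0.563 CPM in Prmt3f/f 7, 66 and 71 (85, 41 and 16 counts) and 1.09, 2.03 and 2.86 CPM in Prmt3LKO 92, 93 and 94 (19, 45 and 57 counts). Both the highest and the lowest of the 6 tumors were Prmt3f/f, and the Prmt3LKO tumors lay between them. The means were 2.13 ± 1.69 and 1.99 ± 0.890 CPM (SD, n = 3 each, exact permutation p = 0.9). In the edgeR fit the log2 fold change was -0.08 (SE 0.67; adjusted p = 0.996 by edgeR), and its sign turned to 0.70 without Prmt3f/f 7 and to 0.21 without Prmt3LKO 92.

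Irf4 (ENSMUSG00000021356, chromosome 13, 30749226 to 30766927, + strand), the interferon regulatory factor of type 2 dendritic cells that plasma cells and activated T cells also use, was measured at 1.75, 1.96 and 1.44 CPM in Prmt3f/f 7, 66 and 71. In Prmt3LKO 92, 93 and 94 it was at 0.572, 1.89 and 1.36 CPM. Prmt3LKO 92 was the lowest by a wide margin, and the other 5 tumors lay between 1.36 and 1.96 CPM. With all tumors the log2 fold change was -0.42 (SE 0.45, adjusted p = 0.948 by edgeR), and without Prmt3LKO 92 it was -0.07.

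Siglech (ENSMUSG00000051504, chromosome 7, 55768178 to 55778925, + strand) encodes a receptor of the Siglec family on plasmacytoid dendritic cells. It was measured at 3.14, 2.01 and 1.3 CPM in Prmt3f/f 7, 66 and 71 (68, 43 and 37 counts) and at 0.514, 1.22 and 0.905 CPM in Prmt3LKO 92, 93 and 94 (9, 27 and 18 counts). All Prmt3LKO tumors lay below all Prmt3f/f tumors, but Prmt3LKO 93 was close to Prmt3f/f 71. The means were 2.15 ± 0.927 and 0.879 ± 0.353 CPM (SD, n = 3 each, exact permutation p = 0.1). On the log2 scale the fold change was -1.27 (SE 0.47), with an unadjusted p = 0.0289 and an adjusted p = 0.684 by the same edgeR test, and unadjusted edgeR p-values ran from 0.0159 to 0.107 with each tumor left out, under 0.05 only without Prmt3f/f 71 or Prmt3LKO 93.

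Ptprc (CD45), carried by all leukocytes, was lower in Prmt3LKO as well, at 40.1 ± 0.784 CPM in Prmt3f/f and 22.8 ± 3.38 CPM in Prmt3LKO (SD, n = 3 each). Its log2 fold change was -0.81 (SE 0.15), with an adjusted p = 0.592 by edgeR and 0.00903 by DESeq2 (0.00903 to 0.996 over the alternatives). Each dendritic cell gene was therefore also set against Ptprc within its own tumor, which was possible for 7 genes, those whose counts were 10 or more throughout. On this scale no gene separated the groups. The log2 ratio of Clec9a to Ptprc was -3.45, -3.95 and -3.38 in Prmt3f/f 7, 66 and 71 and -5.06, -3.87 and -4.47 in Prmt3LKO 92, 93 and 94. The mean difference was -0.87 (exact permutation p = 0.2), and it was -0.57 without Prmt3LKO 92. For Itgax the difference of the ratio was -0.26 (exact permutation p = 0.4) and for Flt3 it was -0.09 (exact permutation p = 1.0). The ratio of Flt3 was on the other side of 0 when Prmt3f/f 7, Prmt3f/f 66, Prmt3LKO 92 or Prmt3LKO 94 was left out, at most 0.16, and that of Itgax was -0.06 without Prmt3LKO 92. The p-values of the 7 ratios were not adjusted for their number.

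The other 4 genes had higher mean ratios to Ptprc in Prmt3LKO. The log2 difference was 0.54 for Zbtb46 (exact permutation p = 0.2), 0.31 for Irf8 (exact permutation p = 0.2), 0.24 for Irf4 (exact permutation p = 0.6) and 1.02 for Cd209a (exact permutation p = 0.3). The Cd209a ratio rested on Prmt3f/f 71, with a log2 ratio of -6.14 against -3.39 and -4.37 in Prmt3f/f 7 and 66, and its difference was 0.26 without that tumor. The Irf4 difference was -0.10 without Prmt3LKO 93. Against the summed counts of 10 leukocyte-wide genes in place of Ptprc, the difference was -1.10 for Clec9a, -0.49 for Itgax, 0.07 for Irf8 and 0.78 for Cd209a. With these genes as the divisor, all Prmt3LKO tumors lay below all Prmt3f/f tumors for Clec9a and for Itgax. The other genes still overlapped, so for Clec9a and Itgax the overlap depended on the choice of divisor. The log2 fold changes of the 10 leukocyte-wide genes ran from -0.95 to -0.0033, against -0.81 for Ptprc. Batf3, Itgae and Siglech had fewer than 10 counts in at least 1 tumor and were given no ratio.

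**Figure D3:**
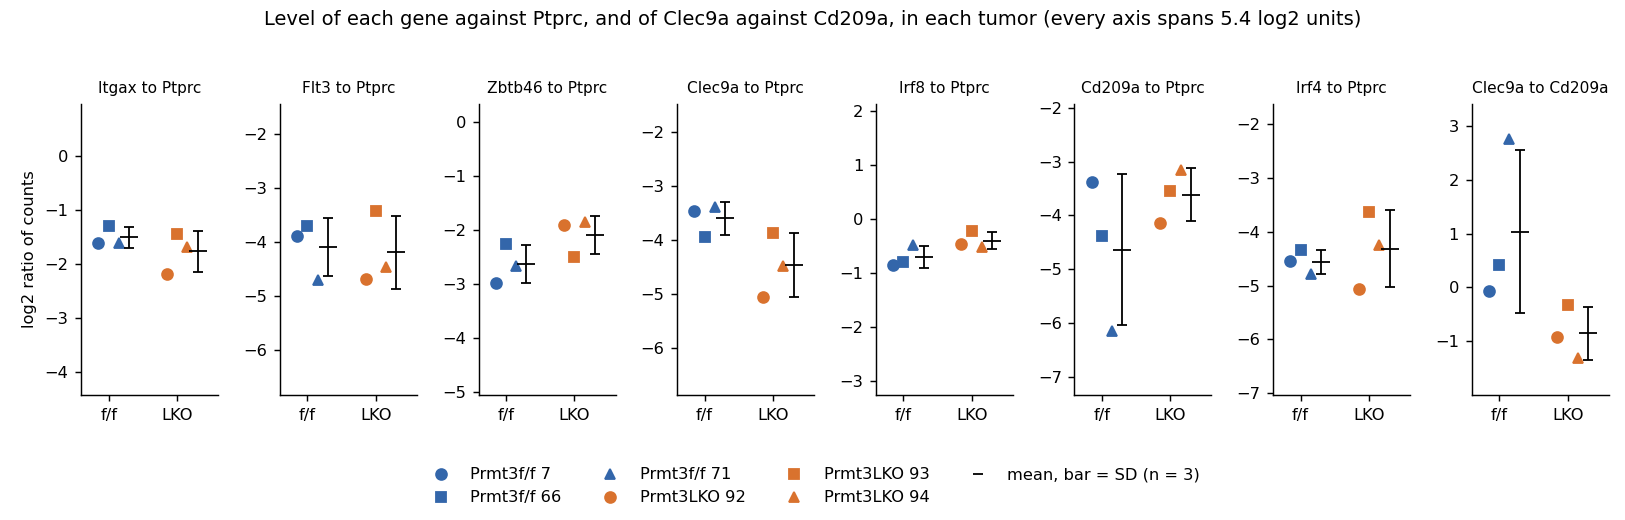
Log2 ratio of the counts of 7 dendritic cell genes to those of Ptprc, and of Clec9a to Cd209a, in each tumor; every axis spans the same number of log2 units, and black marks and bars give the mean and SD of 3 tumors. In the 7 panels against Ptprc the groups overlap, and in the panel of Clec9a to Cd209a the 3 Prmt3LKO tumors (-1.31 to -0.32) lie below the 3 Prmt3f/f tumors (-0.07 to 2.75).

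Pairs of dendritic cell markers were compared in the same way, from RNA of the whole tumor, in which other cells express some of these genes. The log2 ratio of Clec9a (type 1) to Cd209a (type 2) was -0.07, 0.42 and 2.75 in Prmt3f/f 7, 66 and 71 and -0.93, -0.32 and -1.31 in Prmt3LKO 92, 93 and 94. All Prmt3LKO tumors were lower, with a mean difference of -1.89 (exact permutation p = 0.1, not adjusted for the 3 such pairs compared). The gap to Prmt3f/f 7 was small, and without Prmt3f/f 71, which had 16 Cd209a counts, the difference was -1.03. The ratio of the factors Irf8 to Irf4 differed by 0.07 (exact permutation p = 0.8), and that of Siglech to Flt3 by -0.37 (exact permutation p = 0.3).

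Of the 97 other genes in 7 lists on dendritic cell biology, 81 passed the filter. At an unadjusted p under 0.05, 18 were lower in Prmt3LKO and 1 was higher, and 0 were called at the adjusted limits. Over all genes tested 4.37% were lower and 2.20% higher at that p. The groups did not overlap for 22, all lower, against 6.60% lower over all genes tested, and the list counts that follow stand against the same shares. The median log2 fold change was -0.45. The count of 18 was 10 without Prmt3f/f 7 and 11 without Prmt3LKO 92, and the count of 22 was 39 without Prmt3f/f 71 and 34 without Prmt3LKO 94. With a tumor left out groups overlap less often for any gene, so the share of 6.60% does not apply to the counts of 39 and 34. The values named below are means ± SD in CPM over the 3 Prmt3f/f and then the 3 Prmt3LKO tumors, with the log2 fold change in parentheses, and the adjusted p-values of the edgeR fit were all 0.592 or more.

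Among 9 tested genes of 12 other type 1 genes, 4 were lower at an unadjusted p under 0.05 and 0 higher, with a median of -0.50. Xcr1, the chemokine receptor that defines type 1 cells, had 27, 22 and 25 counts in Prmt3f/f 7, 66 and 71 and 9, 3 and 9 in Prmt3LKO 92, 93 and 94, with no overlap and a log2 fold change of -1.52. Wdfy4, needed for cross-presentation, was at 11.6 ± 2.78 and 7.61 ± 0.636 CPM (-0.61), Tlr3, a sensor of double-stranded RNA, at 9.44 ± 1.75 and 6.66 ± 0.913 CPM (-0.50), and Ifi205 at 3.58 ± 1.23 and 1.67 ± 0.933 CPM (-1.10, overlapping). Id2, which many liver cells express, was the most abundant gene of this list, at 154 ± 54.9 and 112 ± 33.9 CPM (-0.45, not past an unadjusted p of 0.05), with a log2 fold change of -0.14 without Prmt3f/f 7 and -0.73 without Prmt3LKO 93. The count of 4 was 2 without Prmt3LKO 92, 1 without Prmt3LKO 93 or without Prmt3f/f 66, and 0 without Prmt3f/f 7.

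Of the 12 other type 2 genes 11 were tested, 0 passed an unadjusted p under 0.05 in either direction and 0 had groups that did not overlap, with a median of -0.34. Their most abundant gene per length, Notch2, a receptor used in type 2 development and by biliary and endothelial cells, was at 72.8 ± 5.26 and 65.4 ± 4.55 CPM. Clec4a4 had 0 counts in all tumors, which allows up to 0.107 to 0.163 CPM (by library total alone, without TMM factors) by counting error. The median was -0.22 without Prmt3f/f 7. The count of 0 was 3 without Prmt3f/f 71 and 1 with each of the 3 Prmt3LKO tumors left out.

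Of the 15 other plasmacytoid genes 13 were tested, with 2 lower and 1 higher at an unadjusted p under 0.05 and a median of -0.35. This median was -0.89 without Prmt3f/f 71, -0.73 without Prmt3LKO 93, -0.67 without either of the other Prmt3LKO tumors and -0.69 without the filter on low counts. Klra17, a lectin-like receptor, had 15, 13 and 19 counts in Prmt3f/f and 3, 1 and 3 in Prmt3LKO (log2 fold change -2.41). Spib, a transcription factor of plasmacytoid and B cells, was at 2.05 ± 0.410 and 0.697 ± 0.471 CPM (-1.53), and the chemokine receptor Ccr9 had 24, 27 and 24 counts against 3, 18 and 2 (-1.51, not past an unadjusted p of 0.05, and -2.93 without Prmt3LKO 93). The gene on the higher side was Bst2, which marks these cells but is also induced by interferon in most cell types, at 132 ± 13.4 and 175 ± 24.7 CPM (0.41, overlapping). Ly6d, the most abundant of the list, ranged from 1593 to 26929 counts over the Prmt3f/f tumors, and its log2 fold change was -0.35, 1.90 without Prmt3f/f 7 and 0.010 without Prmt3LKO 92. Its mean FPKM over the 6 tumors was 587, against 0.189 for Siglech and 1.17 for the leukocyte gene Ptprc. Which cells the Ly6d RNA came from was not tested. The count of 2 was 6 without Prmt3LKO 93, 5 without Prmt3f/f 71, 3 without Prmt3f/f 7 and 1 without Prmt3LKO 92.

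Of the 16 genes of mature and migratory dendritic cells 13 were tested, with 5 lower and 0 higher at an unadjusted p under 0.05, a median of -0.54 and summed levels of 89.3 to 102 CPM in Prmt3f/f and 63.0 to 74.4 CPM in Prmt3LKO. Ccl22, a chemokine that draws regulatory T cells, had 69, 47 and 38 counts in Prmt3f/f 7, 66 and 71 and 2, 19 and 17 in Prmt3LKO 92, 93 and 94 (log2 fold change -1.84). The costimulatory ligand Cd80 was at 1.74 ± 1.06 and 0.338 ± 0.316 CPM (-2.31), Cd83 at 9.14 ± 2.43 and 6.03 ± 0.888 CPM (-0.60, and -0.38 without Prmt3f/f 7), and Il15ra, which presents interleukin 15 to lymphocytes, at 16.1 ± 1.99 and 11.1 ± 1.63 CPM (-0.54). Ccr7, the receptor that guides migration to lymph nodes, overlapped between groups at 2.37 ± 0.787 and 1.46 ± 0.956 CPM (-0.69), with -0.35 without Prmt3LKO 92, -0.41 without Prmt3f/f 7 and -1.35 without Prmt3LKO 93. The count of 5 was 2 without Prmt3f/f 7 or without Prmt3LKO 92 and 3 without Prmt3f/f 71.

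Among growth factors and receptors of dendritic cells, Flt3l, the ligand of Flt3, had 62, 69 and 88 counts in Prmt3f/f 7, 66 and 71 and 69, 83 and 62 in Prmt3LKO 92, 93 and 94. In CPM its mean was 3.06 ± 0.181 in Prmt3f/f and 3.60 ± 0.432 in Prmt3LKO, with a log2 fold change of 0.23 (SE 0.23; adjusted p = 0.938 by edgeR) and 0.17 to 0.33 with each tumor left out. Csf2, the granulocyte-macrophage factor, had 0 counts in every tumor. In this list of 14 genes 11 were tested and 2 were lower at an unadjusted p under 0.05. These were the receptors Csf1r of macrophages (125 ± 16.8 and 90.4 ± 14.9 CPM; -0.47) and Kit of progenitors and mast cells (10.1 ± 0.620 and 6.57 ± 0.273 CPM; -0.62), whereas Ltbr was at 118 ± 4.85 and 121 ± 16.1 CPM. The list's median was -0.31, and its count of 2 was 4 without Prmt3LKO 94 and 1 without Prmt3f/f 66.

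Of 15 transcription factors of dendritic cell development 14 were tested, with 3 lower and 0 higher at an unadjusted p under 0.05 and a median of -0.22. Spi1 (PU.1), used by all myeloid cells, was at 15.3 ± 2.32 and 11.2 ± 1.25 CPM (-0.45), Bcl6 at 48.4 ± 9.35 and 24.2 ± 9.80 CPM (-1.0) and Runx1 at 3.27 ± 0.733 and 1.84 ± 0.171 CPM (-0.83). Cebpb, which hepatocytes also express, was at 161 ± 59.4 and 147 ± 19.8 CPM (-0.13, and 0.18 without Prmt3f/f 71). The count of 3 was 1 without Prmt3f/f 66 or without Prmt3LKO 93, and 2 without Prmt3f/f 7 or without Prmt3LKO 92.

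Of 13 chemokines that attract dendritic cells and their receptors 10 were tested and all 10 had lower means in Prmt3LKO, with 2 at an unadjusted p under 0.05 and a median of -0.80. Xcl1, the ligand of Xcr1 made by natural killer cells and CD8+ T cells, had 40, 13 and 14 counts in Prmt3f/f 7, 66 and 71 and 4, 10 and 6 in Prmt3LKO 92, 93 and 94 (log2 fold change -1.54, and -0.73 without Prmt3f/f 7). Ccr2, the receptor of monocytes and their progeny, was at 9.53 ± 4.36 and 3.96 ± 1.20 CPM (-1.26, and -0.84 without Prmt3f/f 7), and Ccl5 at 8.46 ± 0.582 and 5.69 ± 2.98 CPM (-0.56, overlapping, and -0.22 without Prmt3LKO 92 or -0.98 without Prmt3LKO 93). Ccl19 and Ccl21a had 0 counts in all tumors. The count of 2 was 5 without Prmt3LKO 94, 4 without Prmt3LKO 93, 3 without Prmt3f/f 66 or without Prmt3f/f 71, and 1 without Prmt3f/f 7 or without Prmt3LKO 92.

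**Figure D4:**
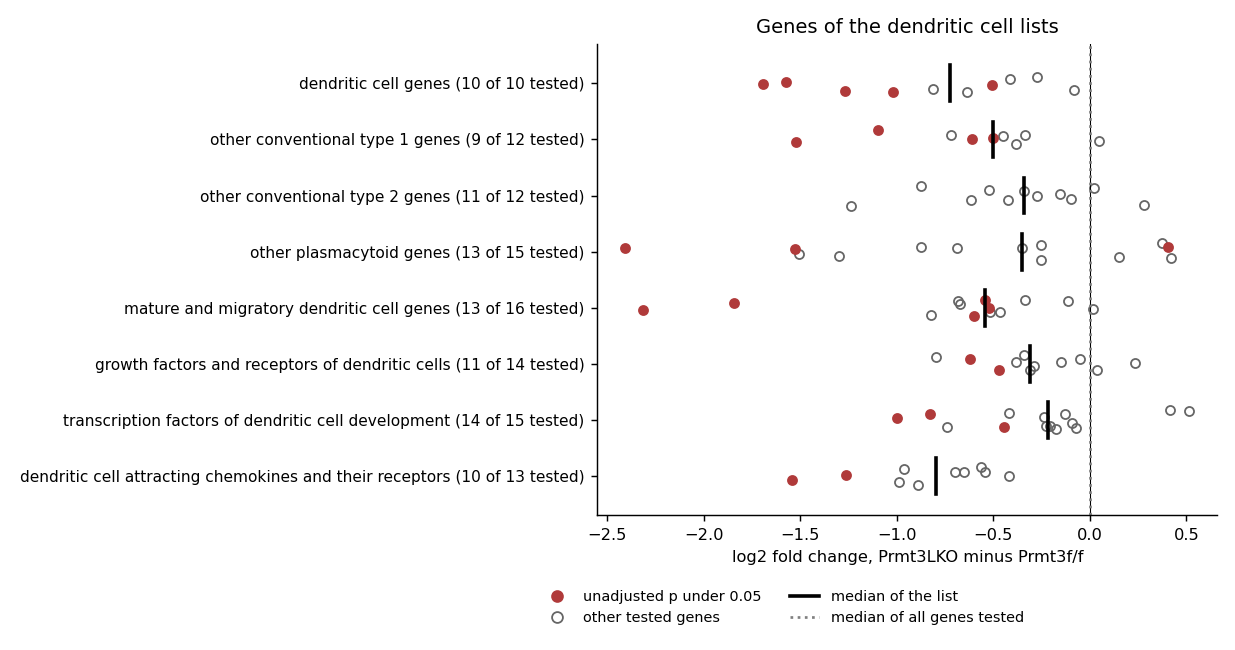
Log2 fold change (Prmt3LKO minus Prmt3f/f) of each tested gene in the dendritic cell genes and in 7 further lists; filled points had an unadjusted p under 0.05 in the edgeR fit, and black bars mark list medians. Medians run from -0.22 for the transcription factors to -0.80 for the chemokines and receptors, and 1 filled point (Bst2) lies right of 0.

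Mean levels of most markers of other leukocytes were also lower in Prmt3LKO, and their part in the values above was not tested. The 10 leukocyte-wide genes had a median log2 fold change of -0.79, with single genes from -0.95 to -0.0033. Their summed level, which mixes these unlike genes, was 295 to 317 CPM in Prmt3f/f and 173 to 230 CPM in Prmt3LKO. Set against this, the summed level of the 10 dendritic cell genes in Prmt3LKO was 62.7% of Prmt3f/f, and that of the leukocyte-wide genes was 66.8%. Most of the former sum was Irf8 (mean 24.8 CPM in Prmt3f/f) and Itgax (14.2 CPM), which other leukocytes also express. Genes that added little to it differed from 62.7% in both directions. Clec9a (3.37 CPM) stood at 33.2%, Siglech (2.15 CPM) at 40.9% and Cd209a (2.13 CPM) at 93.5%. Of the leukocyte-wide genes, 7 of 10 were lower at an unadjusted p under 0.05, among them Cd53 (-0.88), Laptm5 (-0.72) and Itgb2 (-0.95), and Cd52 was at -0.93 (-0.50 without Prmt3f/f 7). T cell markers had a median of -1.09 and summed to 34.0 to 43.4 CPM in Prmt3f/f and 8.46 to 23.8 CPM in Prmt3LKO, with 7 of 12 at an unadjusted p under 0.05 (4 without Prmt3f/f 66 or Prmt3LKO 94). Cd3e was at 2.97 ± 0.437 and 1.41 ± 1.15 CPM (-1.06, with -0.55 without Prmt3LKO 92 and -1.71 without Prmt3LKO 93), Cd8a at -1.46, Cd5 at -1.33, Lat at -1.18 and Trbc2 at -1.50 on the log2 scale. Monocyte and neutrophil markers had a median of -1.49 over 9 tested genes, 6 of them at an unadjusted p under 0.05, and summed to 32.6 to 62.3 and 19 to 24.9 CPM. Ly6c2 (-1.64), S100a8 (-1.67), S100a9 (-1.66) and Csf3r (-1.07) were among the 6, and Plac8 was at -0.40, or 0.045 without Prmt3f/f 7.

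Macrophage and Kupffer cell markers overlapped between groups in sum, at 616 to 765 CPM in Prmt3f/f and 439 to 641 CPM in Prmt3LKO, with a median of -0.37 and 4 of 12 at an unadjusted p under 0.05 (2 without Prmt3f/f 66, Prmt3LKO 92 or Prmt3LKO 93). These 4 were Adgre1 (44.2 ± 4.99 and 31.7 ± 6.89 CPM; -0.48, and -0.31 without Prmt3LKO 93), Timd4 (-1.29), Marco (-2.28) and Cd68 (-0.65, and -0.33 without Prmt3f/f 66), whereas the Kupffer cell lectin Clec4f was at 77.7 ± 24.7 and 74.9 ± 20.2 CPM (-0.05, and 0.23 without Prmt3f/f 7) and C1qb at -0.35 (-0.20 without Prmt3f/f 7). Natural killer cell markers had a median of -0.66 over 7 tested genes and summed to 11.2 to 13.4 and 5.66 to 10.4 CPM, with Nkg7 (-0.95, and -0.62 without Prmt3LKO 92) and Tbx21 (-1.44) at an unadjusted p under 0.05, and their defining gene Ncr1 had 1 to 8 counts. B cell markers had a median of -0.43 over 6 tested genes, 0 of them at an unadjusted p under 0.05, and summed to 10.3 to 10.9 and 6.17 to 9.65 CPM, with Cd79a at -0.55 (-0.24 without Prmt3f/f 71). Plasma cell markers had a median of -0.25 over 7 tested genes and summed to 581 to 775 and 594 to 716 CPM. Of this sum, Xbp1 alone held 363 ± 88.9 and 312 ± 33.4 CPM (-0.22, and -0.0074 without Prmt3f/f 7). Jchain was at 52.2 ± 12.3 and 18.9 ± 16.1 CPM with no overlap between groups (-1.46, and -2.43 without Prmt3LKO 93). Without Prmt3LKO 93 the medians of the macrophage, natural killer, B and plasma cell markers were -0.25, -1.01, -0.85 and -0.79, and without Prmt3LKO 94 that of the plasma cell markers was -0.07. Endothelial markers summed to 287 to 364 and 294 to 347 CPM, with 0 of 10 at an unadjusted p under 0.05 (2 without Prmt3f/f 7) and Cdh5 at -0.15 (-0.03 without Prmt3f/f 66). Hepatocyte markers had a median of 0.10 (-0.11 without Prmt3f/f 7 and 0.34 without Prmt3LKO 93) and Alb was at -0.09 (0.08 without Prmt3f/f 66), with 0 of 10 at an unadjusted p under 0.05, and all 10 were detected in every tumor, as the tissue label implies. Liver tumor markers had a median of -0.51 over 8 genes, or -0.07 without Prmt3f/f 7, and Gpc3 was at -0.76 (-0.37 without Prmt3f/f 66). H19 had 4358, 201 and 323 counts in Prmt3f/f 7, 66 and 71 and 32, 355 and 139 in Prmt3LKO 92, 93 and 94. These groups overlapped, and its log2 fold change of -3.15, at an unadjusted p under 0.05, was -0.33 without Prmt3f/f 7.

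**Figure D5:**
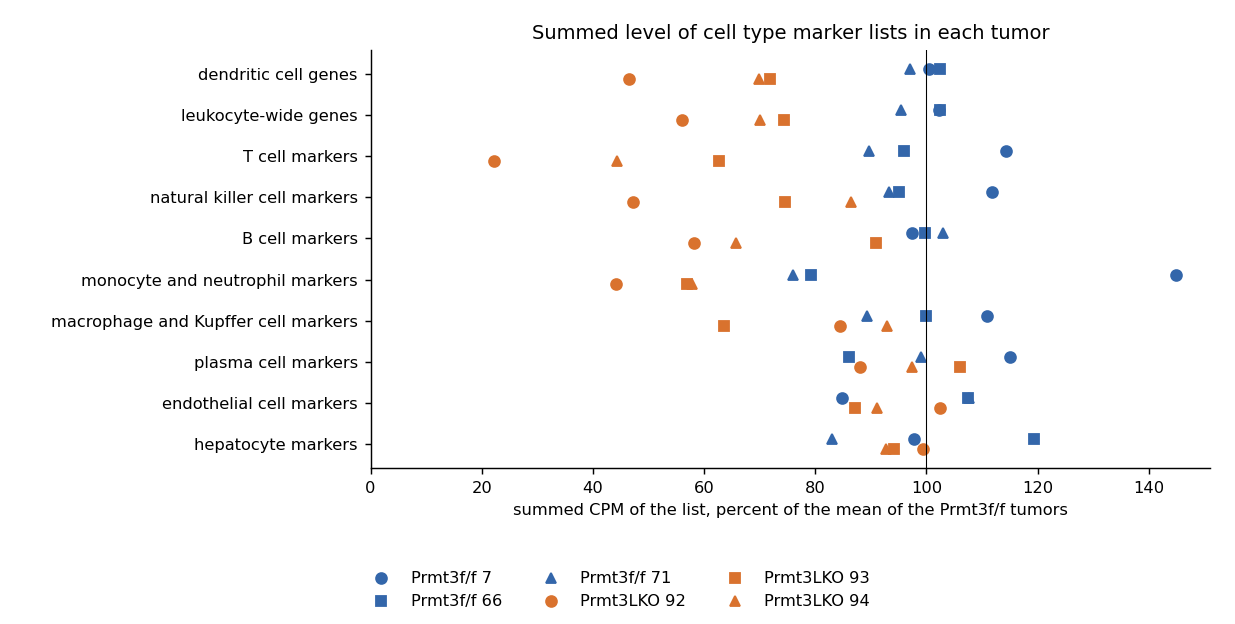
Summed CPM of each marker list in each tumor as percent of the mean of the Prmt3f/f tumors (line at 100), with 1 point per tumor. The dendritic cell genes of the Prmt3LKO tumors lie at 46.5 to 71.8%, the leukocyte-wide genes at 56.1 to 74.4% and the T cell markers at 22.3 to 62.7%, while the endothelial and hepatocyte markers of the 2 genotypes overlap.

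Total counts ranged from 18440244 to 27976598 per tumor, so that 3 counts correspond to 0.107 to 0.163 CPM by library total alone, without TMM factors. Prmt3 itself was at 6.60, 8.49 and 10.2 CPM in Prmt3f/f 7, 66 and 71 and at 2.80, 2.03 and 3.82 CPM in Prmt3LKO 92, 93 and 94, as the labels imply. Correlations of log2 CPM between tumors were 0.946 to 0.971 within groups and 0.948 to 0.972 across them. On the leading principal component, with 33.1% of the variance, the genotypes overlapped and Prmt3f/f 7 stood apart at -55.6, the other tumors lying between -22.2 and 25.6. The next component, with 22.8%, separated them, at 9.76, 40.2 and 16.1 in Prmt3f/f 7, 66 and 71 and -25.3, -31.5 and -9.25 in Prmt3LKO 92, 93 and 94. Mitochondrial genes took 3.80 to 6.40% of the counts, and no sequencing batch was given in the labels.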

How the data were processed

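Total RNA of 6 liver tumors was sequenced as mRNA libraries. Per the submitters' processing notes, bcl2fastq 2.19, HISAT2 2.0.4 and StringTie 1.3.0 were used with GRCm38. The read counter, its strand setting and the gene annotation are not given in the sources used here. The authors deposited a raw count per gene and tumor, and an FPKM value scaled to gene length and library total. Coordinates are those of the deposited table.

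Counts were filtered with filterByExpr (minimum count 10, minimum total 15), scaled by TMM and fitted in edgeR 4.0.16 (R 4.3.3), with its quasi-likelihood test adjusted by Benjamini-Hochberg over 13892 genes, for 3 Prmt3LKO against 3 Prmt3f/f tumors. A call needed an adjusted p under 0.05 and a fold of at least 2. Ratios of counts were compared with exact two-sided permutation tests. Alternatives were DESeq2 1.42.0, limma-voom (limma 3.58.1), library size alone, no filter, log2(FPKM + 1), and leaving out 1 tumor at a time. The fits were tested on simulated data. Promoters are those of RefSeq on GRCm38.p6.

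The genes and all lists were chosen with earlier results of these data known. The text names the 10 genes, Ptprc, in every other list up to 4 genes with the smallest unadjusted p under 0.05 and the gene with the highest mean FPKM, and the defining genes Xcr1, Ccr7, Ccr9, Flt3l, Csf2, Cd8a, Cd3e, Ncr1, Adgre1, Clec4f, Cdh5 and Alb. A further gene of that rule is not reported here. Clec4a4, Ccl19, Ccl21a (0 counts) and Clec1b were named after their values were seen. The depth of 18440244 to 27976598 counts limits genes near 10 counts, and limits given for a count of 0 cover counting error only.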

Additional observations from a re-analysis of the deposited data

How the results depend on the processing

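None of the 10 genes was called in any of the 11 alternatives. The sign of the log2 fold change was kept by 9 of the 10 genes under each of them. Cd209a turned to 0.33 with limma-voom and 0.012 on the log2(FPKM + 1) scale, and ran from -0.54 to 0.70 with each tumor left out. The count of the 10 genes lower at an unadjusted p under 0.05 was 3 with limma-voom and 2 to 5 with each tumor left out. Their median was -0.19 on the log2(FPKM + 1) scale, where the added 1 compresses genes of low FPKM, and -1.01 to -0.47 with each tumor left out. For the 7 further lists together, the count higher at an unadjusted p was 0 with library size alone, without the filter and with log2(FPKM + 1), and 0 to 2 with each tumor left out. Their count with groups apart and higher was 1 with library size alone and with log2(FPKM + 1), and 1 to 4 with each tumor left out. Their median was -0.22 with log2(FPKM + 1). With each tumor left out, 10 to 24 were lower at an unadjusted p and 24 to 39 were apart and lower, in part because fewer tumors overlap less often. The leave-out ranges of the log2 ratios that changed sign were -0.48 to 0.16 for Flt3 to Ptprc, -0.10 to 0.61 for Irf4 to Ptprc and -0.28 to 0.32 for Irf8 to Irf4. Other causes were not tested. Over all genes DESeq2 called 43 lower and 9 higher, and the fit without the filter called 2 lower. No paired analysis was possible because the groups share no replicate numbers. Depth limits Itgae, Batf3, Siglech, Clec9a and Irf4, which had 10 counts or fewer in at least 1 tumor.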
